A study of Mus musculus with 4 samples.

Results

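The keratins examined were Krt75, the keratin of the companion layer of the hair follicle, and Krt6a, Krt6b, Krt16 and Krt17, the keratins that skin makes under stress and in part of the follicle at rest. The 5 genes were taken by symbol from the 32286 features of the deposited matrices, and the question was whether Krt6a, Krt16 and Krt17 follow Krt75 across the skin. The samples were 4 Visium slices of dorsal skin, taken at P38 from mice with the alleles R26-tdTomato and Krox20-CreERT, a line in which Krox20-expressing cells and their progeny carry tdTomato after 4-hydroxytamoxifen, given here at P2. All 4 slices belong to 1 group, with the same alleles, age and induction, and no untreated or Cre-negative group is among them, so every comparison was made between places in the skin. By the study's methods the sections came from 3 mice and each slice held 1 section per mouse, so the slices repeat the same animals. The study left a section with distorted structure out of its own analysis, and since it could not be singled out here, all tissue spots were used and it may be among them. A p-value here measures the spread between slices and not between animals.

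Keratin filaments form from a type I and a type II keratin. Krt6a, Krt6b and Krt75 are type II keratins, and Krt16 and Krt17 are the type I keratins that pair with them. The companion layer is the single sheet of cells between the outer root sheath and the inner root sheath, and it is known for Krt75. Krt6a, Krt16 and Krt17 are known both from follicle sheaths and from wounded or inflamed epidermis, where Krt6a, Krt6b and Krt16 rise. A Visium spot is a small disc of tissue that holds several cells of different types, so a level of a spot is that of the companion layer together with its neighbours, and fewer cells of a type cannot be told apart from less RNA per cell.

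The type II genes lie together on chromosome 15 of GRCm38 (GENCODE M21, minus strand), Krt75 at chr15:101563345-101573904, Krt6b at chr15:101676023-101680287 and Krt6a at chr15:101689910-101694307. The type I genes lie on chromosome 11, also on the minus strand, Krt16 at chr11:100246091-100248902 and Krt17 at chr11:100256217-100261029. Krt6a and Krt6b are near copies, so it matters whether reads can be assigned to one of them. The last 60 coding bases before the stop codon of the 3 type II transcripts are shown to set the near copies beside each other. They lie 560, 509 and 1540 bases before the transcript's 3′ end in Krt6a, Krt6b and Krt75, outside the last 400 bases described next. The span is chr15:101690470-101690529 for Krt6a, chr15:101676532-101676591 for Krt6b and chr15:101564885-101564944 for Krt75, written 5′ to 3′ on the minus strand, and capitals mark, after alignment with gaps, the bases at which Krt6a and Krt6b differ or that lie opposite a gap, and in Krt75 those at which it differs from Krt6a.
Krt6a: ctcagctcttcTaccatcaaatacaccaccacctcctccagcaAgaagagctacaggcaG
Krt6b: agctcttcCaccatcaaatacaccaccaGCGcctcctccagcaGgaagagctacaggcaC
Krt75: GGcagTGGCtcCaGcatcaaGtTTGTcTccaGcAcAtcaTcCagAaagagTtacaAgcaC

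Krt6a and Krt6b differed by 3 substitutions in this stretch and by 3 bases that Krt6b alone holds, and Krt75 and Krt6a by 22 substitutions and 1 Krt75 base opposite a gap. Over the whole Krt6a transcript, 812 of 2189 windows of 90 bases also occurred in another keratin transcript, among them Krt6b and Krt5, but in the last 400 bases none of 311 did, and the same held for the last 400 bases of each of the other 4 genes. Krt6b gave 1 UMI in all 4 slices together, in the Lor/Krt10 region of replicate 4, beside 41277 UMIs of Krt6a. That is at most 0.0135% of the UMIs of the pair by the upper end of the exact 95% binomial interval, which covers counting error only. The 3 slices with none still allow up to 0.111 to 0.14 CPM, the UMIs of a gene scaled to 1000000 UMIs in all. Krt6b did not pass the filter on low counts, so 4 of the 5 keratins were tested.

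The slices held 1462 to 1752 spots and 19393026 to 26910422 UMIs each, with a median of 11662 to 14627 UMIs per spot. Clustering of all spots without the 5 keratins gave 12 regions, called here by leading genes. Lor/Krt10 is the epidermal region by its markers, Atp12a/Plet1 the upper follicle, Scd3/Cidea the sebaceous gland, Atp2c2/Krt14 the outer root sheath, Krt32/Krt31 the hair shaft with inner root sheath keratins also high, Top2a/Mt2 the hair matrix, Mlana/Dct the melanocyte and Ttn/Acta1 the muscle region. Krt32/Krt31 has its name because hair shaft markers, and no inner root sheath markers, were among its 20 leading genes. Its mean log2 fold over the other spots was alike for both lists, 1.18 for hair shaft and 1.19 for inner root sheath markers. Krtap28-13, Adipoq/Thrsp, Slc45a3/Krtap19-2 and Krtap20-2/Myh4 carry no cell type name. Krtap28-13 is led by genes of keratin-associated proteins. Krtap20-2/Myh4 has such genes (Krtap20-2 and Krtap6-3) and muscle genes (Myh4 and Myh2) among its top 10 and also holds muscle RNA (the 10 muscle markers summed to 14165 to 20415 CPM), so its values are of a mixture. Replicate 1 stood apart, since 267 of the 275 spots of Slc45a3/Krtap19-2 were in it and 61 of the 787 Atp2c2/Krt14 spots, so Slc45a3/Krtap19-2 was not tested and Atp2c2/Krt14 is also given without replicate 1. Of the barcodes, 750 occurred in all 4 slices, which is the same position whitelist and not shared cells. Muscle fibres do not make these keratins, so the Ttn/Acta1 region, whose 10 muscle markers summed to 39416 to 43670.4 CPM, was used for comparison. It still held 5946 ± 412 CPM (SD, n = 4 slices) of Krt71, an inner root sheath keratin, so keratin RNA was present there, and whether it came from free RNA or from follicle parts in those spots was not tested. The 10 inner root sheath markers summed to 26488 to 28904 CPM in Ttn/Acta1 and to 14199 to 19642 CPM in Lor/Krt10.

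**Figure D1:**
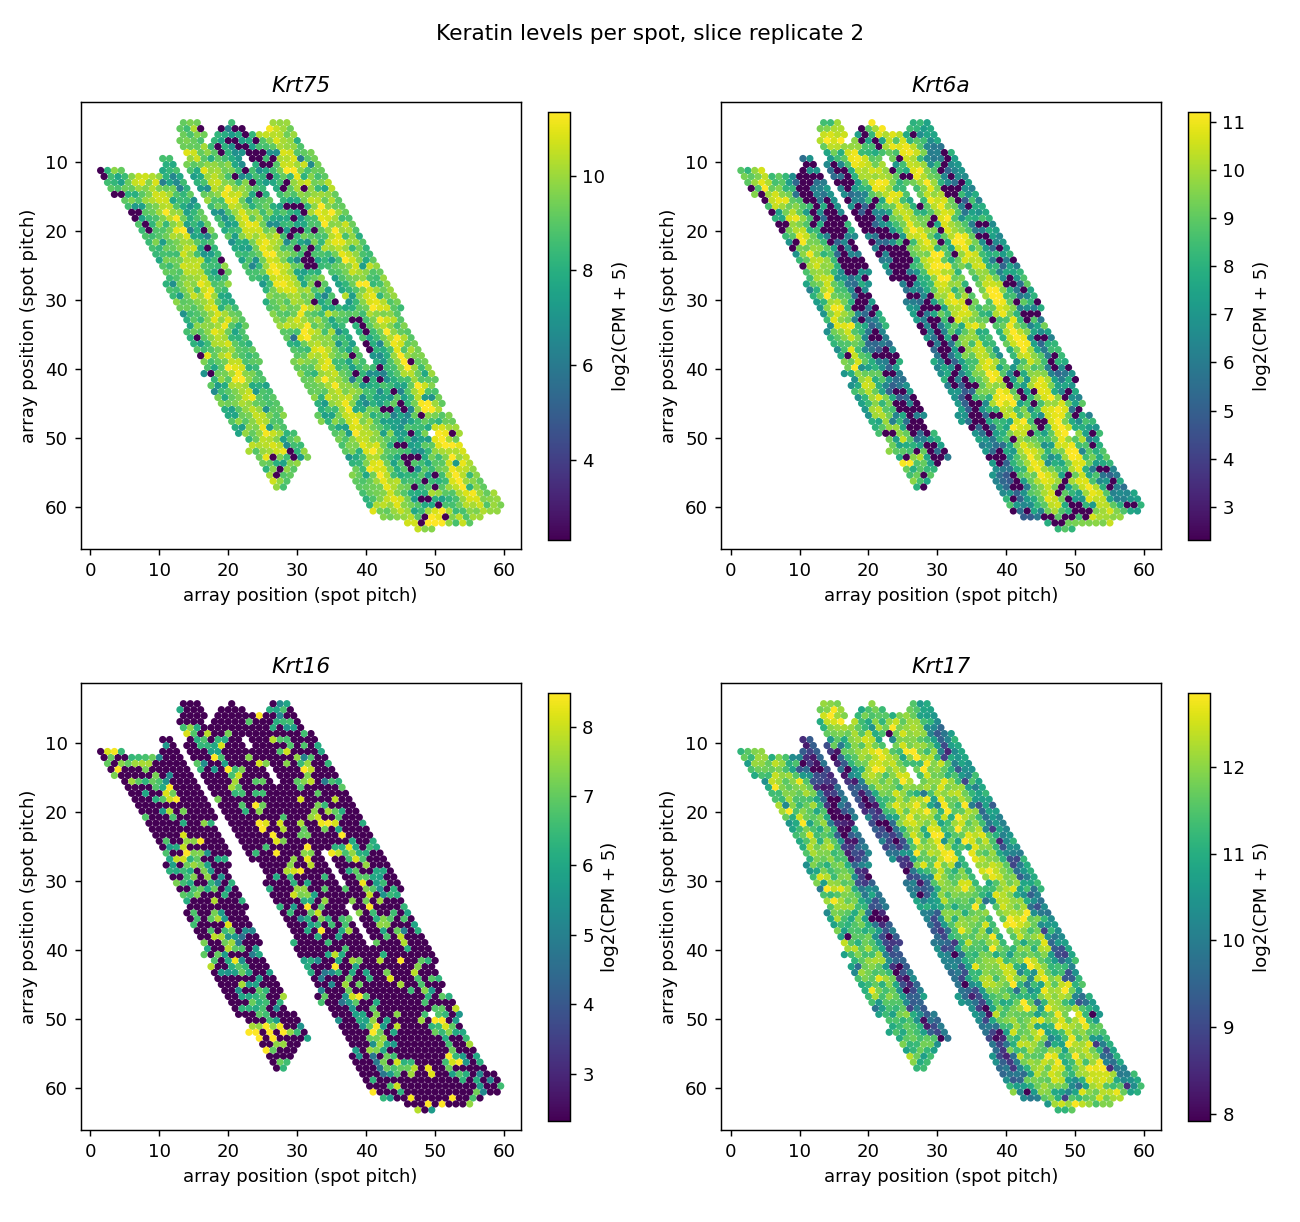
Level per spot of Krt75, Krt6a, Krt16 and Krt17 in slice replicate 2, as log2(CPM + 5), at the spot's place on the array (axes in spot pitches); colour limits leave out the extreme spots of each gene. The slice holds strips of skin side by side. The Krt75 bands run deeper than the Krt6a bands, Krt17 covers most of the follicle and the epidermis, and Krt16 is scattered.

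Krt75 was highest in the Krtap28-13 and Krt32/Krt31 regions, both led by hair genes. In the Krtap28-13 region it stood at 1814, 1496, 1591 and 1726 CPM in replicates 1 to 4, a mean of 1657 ± 141 CPM (SD, n = 4). In the Krt32/Krt31 region it stood at 1695, 1507, 1467 and 1550.1 CPM, a mean of 1555 ± 99.2. The slices of these 2 neighbours in the order overlapped, and each slice lay above every slice of all other regions. The Mlana/Dct (923 ± 169.7 CPM), Krtap20-2/Myh4 (921 ± 39.4, n = 3), Atp2c2/Krt14 (792 ± 35.1) and Adipoq/Thrsp (698 ± 110.4) regions followed, and of these neighbours only Krtap20-2/Myh4 and Atp2c2/Krt14 did not overlap. The Ttn/Acta1 region held 576 ± 29.1 CPM, below every Atp2c2/Krt14 slice and in every slice above those of the Top2a/Mt2 (475 ± 47.3), Atp12a/Plet1 (409 ± 58.8), Lor/Krt10 (379.6 ± 66.3) and Scd3/Cidea (338 ± 44.8) regions. Krt75 in the upper follicle, the gland and the epidermis was thus no higher than in muscle. The muscle region itself held more inner root sheath RNA than the epidermis, so it is no floor for Krt75. These levels are therefore read neither as expression nor as its absence. The Krtap28-13 and Krt32/Krt31 regions held 20% and 27.8% of all Krt75 UMIs.

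Against the epidermal region Krt75 rose by a log2 fold change of 2.43 ± 0.13 (SE), adjusted p = 3.6e-22 in Krtap28-13 (edgeR's quasi-likelihood test, Benjamini-Hochberg over all 12932 genes tested, called below 0.05) and by 2.16 ± 0.13 (SE), adjusted p = 1.8e-20 in Krt32/Krt31. It rose by 1.05 ± 0.13 (SE), adjusted p = 1.1e-09 in Atp2c2/Krt14 and stood at 0.094 ± 0.13 (SE), adjusted p = 0.67 in Atp12a/Plet1, which did not pass. Calls were common between regions, since 44.6% of genes tested were called in Krtap28-13, 58.4% in Krt32/Krt31, 36.4% in Atp2c2/Krt14 and 22.7% in Atp12a/Plet1, and the members are read beside these shares. All 4 keratins tested were called in Krtap28-13 and in Atp2c2/Krt14, 3 in Krt32/Krt31 and 2 in Atp12a/Plet1. Within single strips of tissue, Krt75 was above the epidermal spots in 12 of 12 strips in Krtap28-13 and in 12 of 12 in Krt32/Krt31. The same held in 11 of 12 strips each in Ttn/Acta1, Top2a/Mt2 and Adipoq/Thrsp and in 7 of 7 in Mlana/Dct. In Atp12a/Plet1 it held in 9 of 12 and in Scd3/Cidea in 2 of 12. The strip counts alone thus do not set Krtap28-13 and Krt32/Krt31 apart from muscle.

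Krt6a, a type II keratin of the outer root sheath and of wounded epidermis, was highest in the upper follicle and the outer root sheath. The Atp12a/Plet1 region held 1356, 1522, 1452 and 1600.0 CPM in replicates 1 to 4 and the Atp2c2/Krt14 region 1404, 1274, 1144 and 1238 CPM, means of 1483 ± 104 and 1265 ± 108. These slices overlapped (replicate 1 of Atp2c2/Krt14 exceeded replicate 1 of Atp12a/Plet1), and all lay above the Scd3/Cidea region with 734 ± 121 CPM. The Krtap20-2/Myh4 region held 527 ± 56.6 CPM (n = 3), and the Krtap28-13 region 397, 426, 479 and 492 CPM, all 4 above the epidermal 351, 384, 372 and 383. In Krt32/Krt31, where Krt75 was high, Krt6a stood at 117, 104, 111 and 153 CPM, overlapping the Ttn/Acta1 region at 133, 114, 122 and 164 CPM. The Top2a/Mt2 and Mlana/Dct regions were lowest at 30.6 ± 9.97 and 37.2 ± 8.31 CPM. Krt6a rose by 1.98 ± 0.13 (SE), adjusted p = 1.1e-17 in Atp12a/Plet1 and by 1.75 ± 0.13 (SE), adjusted p = 3.7e-16 in Atp2c2/Krt14, and without replicate 1, in which Atp2c2/Krt14 held few spots, the latter was 1.68 for Krt6a and 1.13, 0.66 and 0.44 for Krt75, Krt16 and Krt17. It fell in Krt32/Krt31 by 1.51 (adjusted p = 6e-14). The hair shaft region drawn from marker lists in place of clusters gave 0.67 (adjusted p = 0.006). That region is a different set of spots, so these values are not of the same tissue.

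Krt17, a type I keratin of the outer root sheath and other follicle sheaths, was highest in the upper follicle. The Atp12a/Plet1 region held 4400.4, 5055, 5187 and 4921 CPM, a mean of 4891 ± 345, and the Atp2c2/Krt14 (3863, 4087, 4309 and 3672 CPM) and Krtap28-13 (3392, 3928, 4313 and 4042 CPM) regions overlapped each other below it. The Scd3/Cidea (3497 ± 439), Krtap20-2/Myh4 (2902 ± 269.8) and Lor/Krt10 (2868 ± 184) regions followed, then Krt32/Krt31 at 2153, 2331, 2301 and 2255 CPM, every slice of which was below every epidermal slice. Each slice of these regions exceeded Adipoq/Thrsp at 1134 ± 92.5, Ttn/Acta1 at 1095 ± 95.8 CPM, Mlana/Dct at 1111 ± 241 and Top2a/Mt2 at 559 ± 41.2. Krt17 rose against the epidermis by 0.76 (adjusted p = 7.9e-08) in Atp12a/Plet1, 0.74 (adjusted p = 3.8e-08) in Krtap28-13 and 0.46 (adjusted p = 0.0003) in Atp2c2/Krt14. In Krt32/Krt31 it stood at -0.22 (adjusted p = 0.067), and with slice as a replicate block the same value passed at adjusted p = 0.0088. In the hair shaft region from marker lists, a different set of spots, it was 0.63 (adjusted p = 3.1e-05).

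Krt16, the type I keratin best known from wounded epidermis, was sparse, at 4394 UMIs in all slices. It was highest in the muscle-rich mixture Krtap20-2/Myh4 at 237, 247 and 154 CPM in replicates 2 to 4 and in Krtap28-13 at 189.8, 103, 132 and 129.7 CPM in replicates 1 to 4. These 2 overlapped. Atp2c2/Krt14 (59.3 ± 13 CPM) and Krt32/Krt31 (55.6 ± 9.6) followed, then Atp12a/Plet1 (38.8 ± 10.1), Lor/Krt10 (36.3 ± 9.2), Adipoq/Thrsp (27.1 ± 8.06) and Ttn/Acta1 (24.9 ± 3.38), each overlapping the next. The Scd3/Cidea (24.5 ± 5.75), Mlana/Dct (16 ± 7.8) and Top2a/Mt2 (9.04 ± 2.08) regions were lowest. Krt16 rose against the epidermis by 2.24 ± 0.20 (SE), adjusted p = 4.1e-14 in Krtap28-13, 2.45 (adjusted p = 9.9e-10) in Krtap20-2/Myh4, a shallow region with a median of 5016 UMIs per spot, 0.74 (adjusted p = 0.0019) in Krt32/Krt31 and 0.62 (adjusted p = 0.021) in Atp2c2/Krt14. The last of these lost its call without replicate 2 (0.55, adjusted p = 0.099) or replicate 3 (0.67, adjusted p = 0.069). In Atp12a/Plet1 it stood at 0.086 (adjusted p = 0.86). In Ttn/Acta1 it stood at -0.50 (adjusted p = 0.069), and with the replicate block it fell there at adjusted p = 0.013.

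Krt6a and Krt17 fell in the deep regions, and Krt16 fell in part of them. Against the epidermis Krt16 was called lower in Top2a/Mt2 (-1.95, adjusted p = 1.1e-08) and Mlana/Dct (-1.27, adjusted p = 0.0029). In Adipoq/Thrsp (-0.48, adjusted p = 0.086) and Ttn/Acta1 (-0.50, adjusted p = 0.069) it was not called. Krt6a fell against the epidermis in Top2a/Mt2 (-3.62), Mlana/Dct (-3.44), Adipoq/Thrsp (-1.77) and Ttn/Acta1 (-1.43), and Krt17 fell in the same 4 regions by 2.35, 1.49, 1.40 and 1.33 (adjusted p at most 3.9e-13). Krt75 rose in Mlana/Dct by 1.17 (adjusted p = 5.1e-11) and in Adipoq/Thrsp by 0.82 (adjusted p = 2.3e-07). In Ttn/Acta1 and Top2a/Mt2 its values were 0.66 (adjusted p = 1.5e-05) and 0.33 (adjusted p = 0.017), of which the latter lost its call without replicate 2 (0.23, adjusted p = 0.15) or replicate 4 (0.23, adjusted p = 0.17) and with DESeq2 (0.23, adjusted p = 0.093), 17 clusters (0.20, adjusted p = 0.13), no spot filter (0.26, adjusted p = 0.069) and thinned spots (0.27, adjusted p = 0.067). Since the Krt75 level of the epidermis is read neither as expression nor as its absence, the same holds for a rise over it in Ttn/Acta1 or Top2a/Mt2. Of all genes, 70.7%, 54.3%, 56.3% and 54.6% were called in these regions. In the sebaceous region Scd3/Cidea, where 12.1% were called, Krt6a rose by 0.94 (adjusted p = 2.3e-07) and Krt75 stood at -0.21 (adjusted p = 0.38). In Krtap20-2/Myh4, where 12.7% were called, Krt75 rose by 1.21 (adjusted p = 1.8e-09). Krt6a stood there at 0.44 (adjusted p = 0.049), a call lost with any slice left out (0.29 to 0.51, adjusted p = 0.075 to 0.29) and with no filter on low genes, 17 clusters, thinned spots or strips as units.

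**Figure D2:**
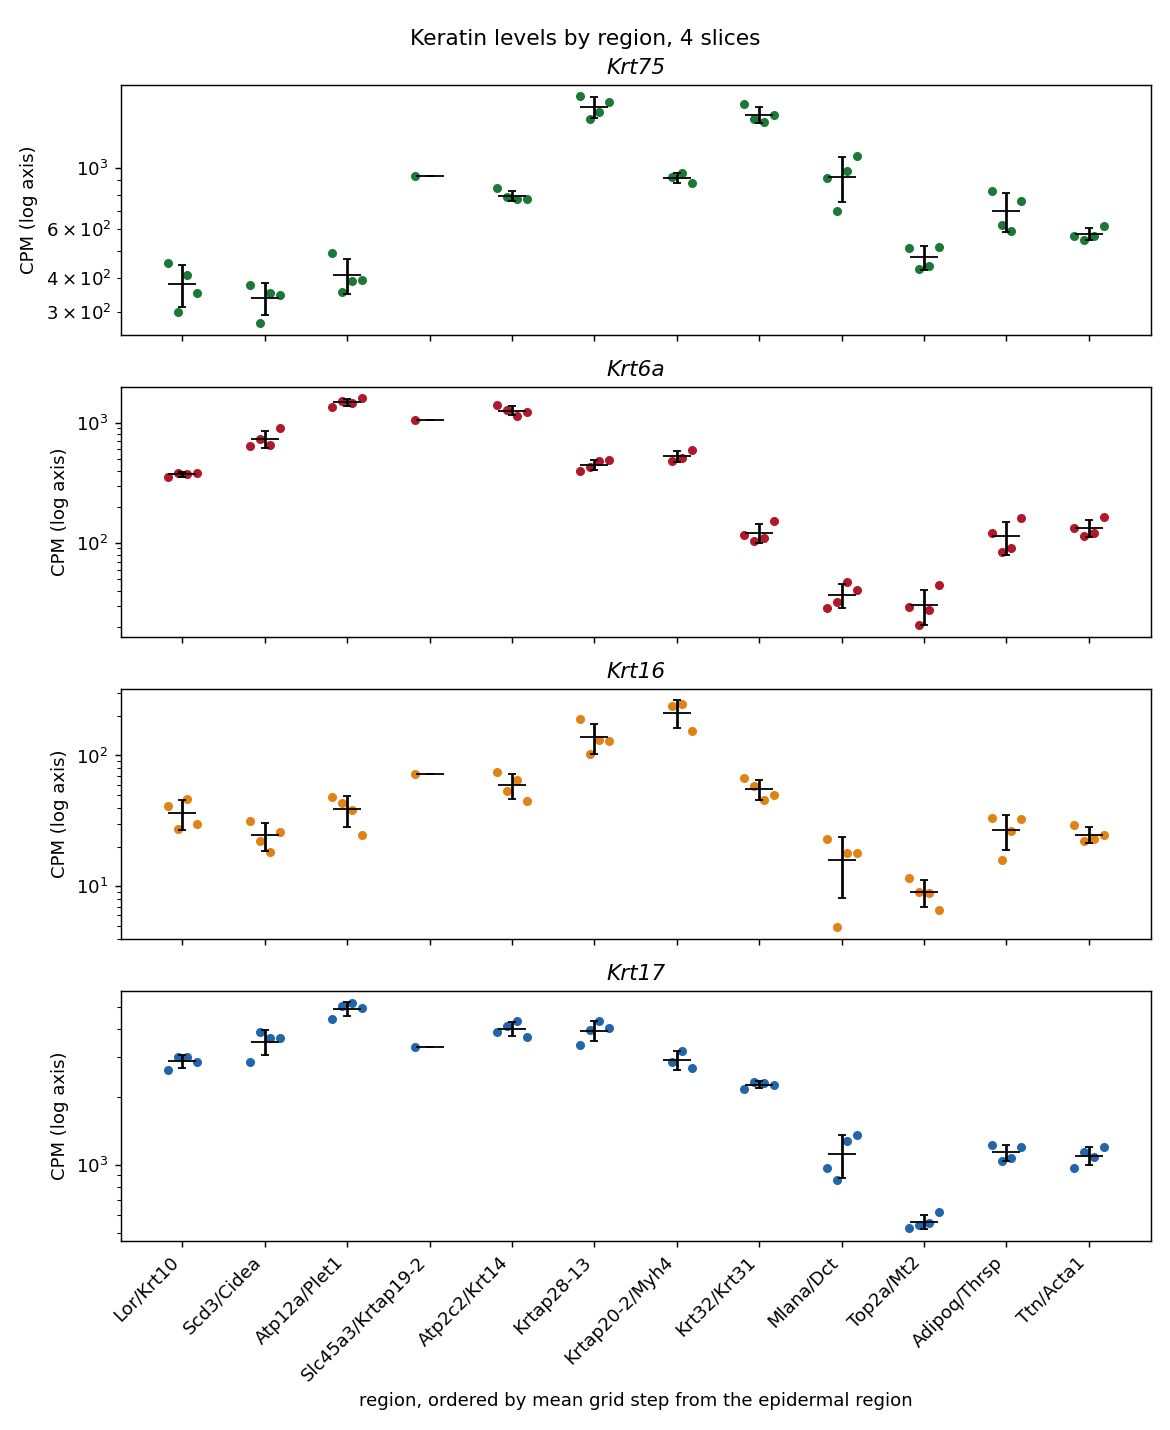
Level of each keratin in CPM (log axis) in 12 regions ordered by mean grid step from the epidermal region; points are slices, bars the mean and SD over slices (Slc45a3/Krtap19-2 has 1 slice and Krtap20-2/Myh4 has 3). Krt75 and Krt16 are high in Krtap28-13, whereas Krt6a and Krt17 are highest in Atp12a/Plet1.

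The share of spots with a UMI said little for the abundant keratins. Krt75 was found in 100% of Krtap28-13 spots but also in 98.8% ± 0.541 of muscle spots, and in 90.4% ± 5.51 of epidermal spots, at medians of 12137, 14099 and 8911 UMIs per spot. Krt6a, with every spot thinned to 5500 UMIs, was found in 99% ± 0.654 of Atp2c2/Krt14 spots against 46.3% ± 6 of Krt32/Krt31 and 48.4% ± 4.23 of muscle spots. Before thinning the shares were 99.3%, 75% and 75.5%. Krt16 was found in 44.1% ± 11.6 of thinned Krtap28-13 spots and 12.5% ± 1.45 of muscle spots (66.3% and 29.3% before thinning).

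The keratins peaked at different depths. Distance was counted in grid steps from the nearest spot of the epidermal region. By region, 58.2% of step 1 spots were Atp12a/Plet1, 41.5% of step 2 spots Atp2c2/Krt14 and 44.3% of step 4 spots Krtap28-13. Krt6a peaked at step 2 in all 4 slices and Krt75 at step 4 in all 4. At step 2 Krt6a stood at 1261, 1529, 1327 and 1502 CPM in replicates 1 to 4 and Krt75 at 856, 516, 629.6 and 599.9. At step 4 Krt6a had dropped to 272, 395, 313 and 415 CPM, slices on both sides of the 373 ± 15.4 CPM of step 0, while Krt75 stood at 1507, 1505, 1483 and 1563 CPM. Krt17 peaked at step 1 in all 4 slices, at 4025, 4611, 4685 and 4560.3 CPM, and still held 2590.3, 3586, 3435 and 3351 CPM at step 4. Krt16 peaked at steps 3 to 4, with 108, 88.1, 98.2 and 86.1 CPM at step 3 and 104, 81.3, 94.6 and 92.6 at step 4, slices that overlapped. In the 12 single strips the peak lay nearer the epidermis than that of Krt75 in 12 for Krt6a, 12 for Krt17 and 11 for Krt16.

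**Figure D3:**
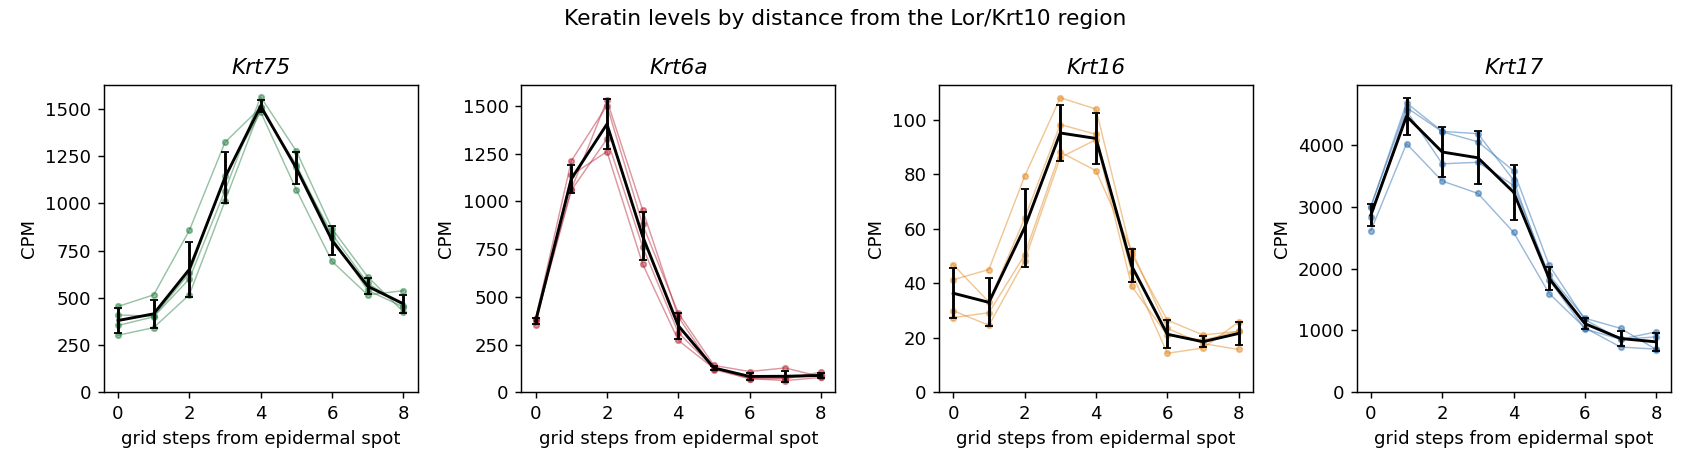
Level in CPM of each keratin against grid steps (0 to 8) from the nearest epidermal spot; coloured lines are the 4 slices, the black line their mean with SD. Krt6a peaks at step 2, Krt75 at step 4, Krt16 at steps 3 to 4 and Krt17 at step 1 with a broad shoulder.

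Tested against step 0 (edgeR, 12406 genes), 18.2%, 32.5%, 41.0%, 49.4%, 64.1% and 62.8% of genes were called at step 1, 2, 3, 4, 5 to 6 and from 7 on. The members' calls are read beside these shares. Krt6a rose by 1.89 (adjusted p = 1.9e-14) at step 2 and 1.20 (adjusted p = 3.7e-10) at step 3, and stood at -0.033 (adjusted p = 0.84) at step 4. Krt75 rose by 0.76 (adjusted p = 9.6e-05), 1.66 (adjusted p = 4.1e-11) and 2.06 (adjusted p = 2.5e-13) at steps 2, 3 and 4. Krt16 rose by 0.72 (adjusted p = 0.0044) at step 2 and 1.42 (adjusted p = 1e-07) at step 4. Krt17 rose by 0.60 (adjusted p = 4.8e-05) at step 1 and stood at 0.24 (adjusted p = 0.059) at step 4, and with the replicate block the value at step 4 passed at adjusted p = 0.0003. At steps 5 to 6 Krt75 was still higher, at 1.35 (adjusted p = 1.6e-09), whereas Krt16 stood at -0.15 (adjusted p = 0.52) and was not called. Krt17 and Krt6a were lower there, at -0.999 (adjusted p = 9e-10) and -1.87 (adjusted p = 7.6e-15). Krt16 thus did not keep to Krt75 at these steps. From step 7 on, Krt6a fell by 2.13, Krt17 by 1.76 and Krt16 by 0.91 on the log2 scale, and Krt75 rose by 0.44 (all called, adjusted p at most 0.0099). With epidermal spots chosen by a marker list, Krt6a at step 4 was 0.79 (adjusted p = 0.00024). The mean step, weighted by CPM over steps 0 to 8, was 4.17 ± 0.13 for Krt75 (SD, n = 4). It was nearer the epidermis for the other 3, with a difference from Krt75 of -1.87 steps for Krt6a, -1.33 for Krt17 and -0.69 for Krt16, each in 4 of 4 slices (exact two-sided sign-flip permutation test, p = 0.13 for each, the smallest 4 slices allow).

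The ratio of a keratin to Krt75 within a slice is a scale from which depth cancels. A gene that follows Krt75 keeps its ratio, so that the log2 ratio in a region minus that in the epidermal region is near 0. For Krt6a that difference was 1.88 ± 0.12 (SD, n = 4) in Atp12a/Plet1 and 0.68 ± 0.32 in Atp2c2/Krt14, then -1.88 ± 0.23 in Krtap28-13 and -3.69 ± 0.35 in Krt32/Krt31. Krt17 moved less but in the same order, from 0.66 ± 0.14 in Atp12a/Plet1 through -0.60 ± 0.29 in Atp2c2/Krt14 to -1.69 ± 0.21 in Krtap28-13 and -2.39 ± 0.23 in Krt32/Krt31. Each of these 8 values had 1 sign in all 4 slices. Krt16 was closest to 0 of the 3 in each of these regions. It was at -0.026 ± 0.38 in Atp12a/Plet1 (2 slices above 0 and 2 below), -0.36 ± 0.22 in Atp2c2/Krt14 and -0.20 ± 0.30 in Krtap28-13 (1 slice above 0 and 3 below). But in Krt32/Krt31 it was -1.42 ± 0.31, below 0 in 4 of 4 slices. In the deep regions Krt16 was also below 0 in 4 of 4 slices. It lay at -2.64 ± 0.77 in Mlana/Dct, -2.34 ± 0.34 in Top2a/Mt2, -1.33 ± 0.36 in Adipoq/Thrsp and -1.14 ± 0.29 in Ttn/Acta1. The rise of Krt75 in Ttn/Acta1 and Top2a/Mt2 is read neither as expression nor as its absence, which limits their ratios. In Krtap20-2/Myh4 Krt16 was at 1.24 ± 0.23 (n = 3), and Krt6a was closer to 0 at -0.92 ± 0.33. Over the 30 pairs compared, the exact sign-flip permutation test gave p = 0.13 wherever all 4 slices had 1 sign (Benjamini-Hochberg adjusted 0.15), p = 0.375 for Krt16 in Krtap28-13, 0.25 for the 3 slices of Krtap20-2/Myh4 and p = 1 in Atp12a/Plet1. None could reach 0.05 with 4 slices. Since Krt75 in the epidermal and Atp12a/Plet1 regions was below its level in muscle, the ratios in Atp12a/Plet1 have a weak denominator on both sides, and those of Atp2c2/Krt14, Krtap28-13 and Krt32/Krt31 share only that of the epidermis.

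**Figure D4:**
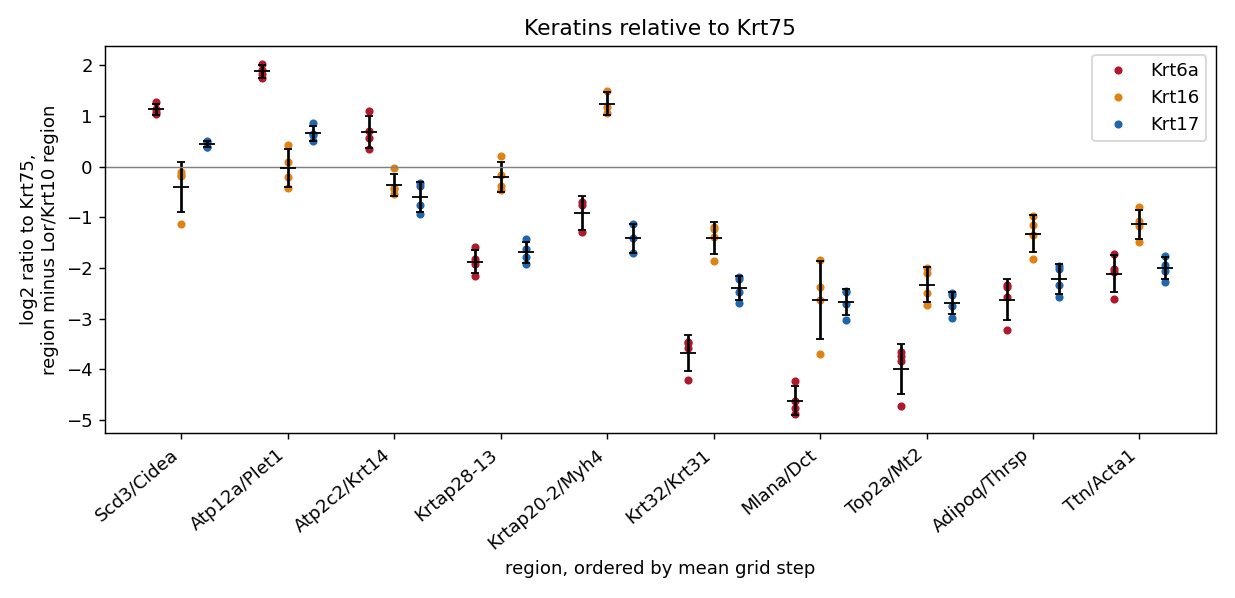
The log2 ratio of Krt6a, Krt16 and Krt17 to Krt75, region minus epidermal region, by region in order of mean grid step; points are slices, bars the mean and SD, and 0 marks an unchanged ratio. Krt6a runs from 1.88 in Atp12a/Plet1 to -4.63 in Mlana/Dct. Krt16 stays near 0 in Atp12a/Plet1 and Krtap28-13 but lies at -2.64 in Mlana/Dct and 1.24 in Krtap20-2/Myh4.

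The 10 genes whose pattern was most like that of Krt75 included known inner root sheath genes and none of the other keratins studied here. Likeness was Pearson's r of log2(CPM + 5) over 44 points, each a region in a slice, a description with no test because points of a slice share a library. Padi3, an enzyme that citrullinates trichohyalin, led the 12321 genes with r = 0.98, followed by Krt27 (0.97), an inner root sheath keratin, and Tchh, trichohyalin itself (0.96). The other 7 of the 10 most alike were Crym, Tm4sf1, Ly6g6g, Slc39a8, Fhod3, Krt72 and Vsig8, at r from 0.92 to 0.95. Inner root sheath keratins ranked high, such as Krt71 (13), Krt28 (51) and Krt73 (146). The listed stress genes were spread over the ranking. S100a8 ranked 23 (r = 0.89) and Sprr1b 76, but Slpi ranked 9866 (r = -0.40) and Klk6 10861 (r = -0.50), with the others of the list between. Krt16 ranked 575 (r = 0.56), Krt17 ranked 3402 (r = 0.062) and Krt6a ranked 6711 (r = -0.15). Within single slices r lay between -0.29 and -0.11 for Krt6a, -0.038 and 0.14 for Krt17, and 0.51 and 0.67 for Krt16. Krt6a was instead like Krt14 (r = 0.98) and Krt5 (r = 0.96), the keratin pair of basal cells, and like Krt17 (r = 0.92). Krt16 was most like Krt84, a type II hair keratin (r = 0.95), a gene chosen after its value was seen.

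Spots of 1 region were also compared by their own Krt75. With all spots thinned to 5500 UMIs, only the epidermal region held at least 20 spots with and without Krt75 in each slice. There Krt6a stood at 337, 377, 425 and 368 CPM in the Krt75-positive and 331, 311, 277 and 461 CPM in the Krt75-negative spots, groups that overlapped, a log2 fold change of 0.11 ± 0.16 (SE), adjusted p = 1. Krt17 stood at 0.16 (adjusted p = 1) and Krt16 at 0.21 (adjusted p = 1). The Krt16 value rests on 127 UMIs in the Krt75-positive and 19 in the Krt75-negative spots. Apart from Krt75, which chose the spots and makes up the 0.0191% called, none of 5236 genes was called by edgeR, and 241 had an unadjusted p under 0.05. DESeq2 also called Krt75 alone, and edgeR with the replicate block called 10 genes, none of them a further keratin of the 5.

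For the follicle regions, where most spots held Krt75, spots of each slice and region were ranked by Krt75 UMIs. Those beyond the upper tercile cut were set against those beyond the lower, a split chosen after the data had been seen. Ties made the groups unequal, such as 50 and 20 spots in replicate 3 of Atp12a/Plet1. The lower group held no Krt75 there in replicates 2 to 4, nor in any slice of Top2a/Mt2. In Krt32/Krt31 the other keratins were higher where Krt75 was higher. Krt17 stood at 3219, 3573, 3308 and 3337 CPM in the upper and 1524, 1827, 1795 and 1428 CPM in the lower tercile, with no overlap, a rise of 1.06 ± 0.13 (SE), adjusted p = 0.00018. Krt16 rose there by 1.28 ± 0.28 (SE), adjusted p = 0.0094, and Krt6a by 0.84 ± 0.19 (SE), adjusted p = 0.01, from 99.2, 87.9, 92.6 and 125 to 182, 127, 166 and 235 CPM. The Krt16 value rests on 111 UMIs in the upper and 45 in the lower tercile. All 3 keratins were called, against 4.52% of 4180 genes called higher and 5.26% called either way. Spots of the upper tercile lay at a mean of 4.70 steps and those of the lower tercile at 5.05, and its part in the result was not tested. Without replicate 3, Krt16 (1.30, adjusted p = 0.069) and Krt6a (0.83, adjusted p = 0.073) lost their call, and so did Krt16 without replicate 1 (1.02, adjusted p = 0.052). The muscle region gave a like split, Krt17 at 0.85 (adjusted p = 0.00034) and Krt6a at 1.04 (adjusted p = 0.0012), with 2.08% of genes called higher and 3.8% either way. In Adipoq/Thrsp Krt17 rose by 1.23 (adjusted p = 4.6e-05) and Krt6a by 1.05 (adjusted p = 0.035), and in Top2a/Mt2 Krt17 rose by 1.17 (adjusted p = 1.4e-06), with 6.06% and 6.74% of genes called. A like rise was thus also measured in regions not named for a follicle sheath. These regions still held inner root sheath RNA. Its 10 markers summed to 26488 to 28904 CPM in Ttn/Acta1, 28623 to 36653 CPM in Adipoq/Thrsp and 20851 to 23446 CPM in Top2a/Mt2. The part of that RNA in the rise was not tested. Within Krt32/Krt31 some other keratinocyte genes were also higher in the upper tercile. Of the basal and suprabasal keratins 3 of 7 tested were called higher (median 0.42), among them Krt15 at 0.99 (adjusted p = 0.0004), and of the stress genes 4 of 6 (median 0.94), among them Sprr1b at 1.42 (adjusted p = 1.1e-05) and Ivl, involucrin, at 1.03 (adjusted p = 0.00084), against a median of -0.028 over all genes tested. Of the inner root sheath keratins 1 of 7 was called, Krt26 at 0.61 (adjusted p = 0.021) (median -0.0062). None of the 8 adhesion and plakin partners of keratin filaments was called (median 0.11). Of 7 growth factors and regulators tied to stress keratins 1 was called higher and 1 lower (median 0.37). The part of these genes in the result was not tested.

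In the outer root sheath region, Atp2c2/Krt14, Krt6a ran the other way. It stood at 1187, 1124, 952 and 1121 CPM in the upper and 1679, 1419, 1403 and 1449 CPM in the lower tercile, lower in 4 of 4 slices and with no overlap, a log2 fold change of -0.42 ± 0.12 (SE), adjusted p = 0.13. That did not pass, while the fit with slice as a replicate block gave -0.41 with adjusted p = 0.0046. Without the block 0.468% of 4696 genes were called, and with it 1.45%. Spots of the upper tercile lay deeper, at 2.81 ± 0.084 against 2.26 ± 0.22 steps. In Krtap28-13, Krt16 stood at 266, 125, 196 and 139.5 CPM in the upper and 116, 53, 68.6 and 22.2 CPM in the lower tercile, higher in 4 of 4 slices and with no overlap between the groups (1.41 ± 0.33 (SE), adjusted p = 0.074, and adjusted p = 8.7e-06 with the replicate block). These values rest on few counts, 208 Krt16 UMIs in the upper and 71 in the lower tercile over all 4 slices. Krt17 in Krtap28-13 stood at 0.36 (adjusted p = 0.47) and in Atp12a/Plet1 at -0.26 (adjusted p = 0.52), values that passed with the block, which called 3.03% and 3.37% of genes against 0.34% and 0.0334% without it, at adjusted p = 0.0013 and 0.0011. Krt6a stood at -0.29 (adjusted p = 0.62) in Krtap28-13 and -0.23 (adjusted p = 0.75) in Atp12a/Plet1.

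**Figure D5:**
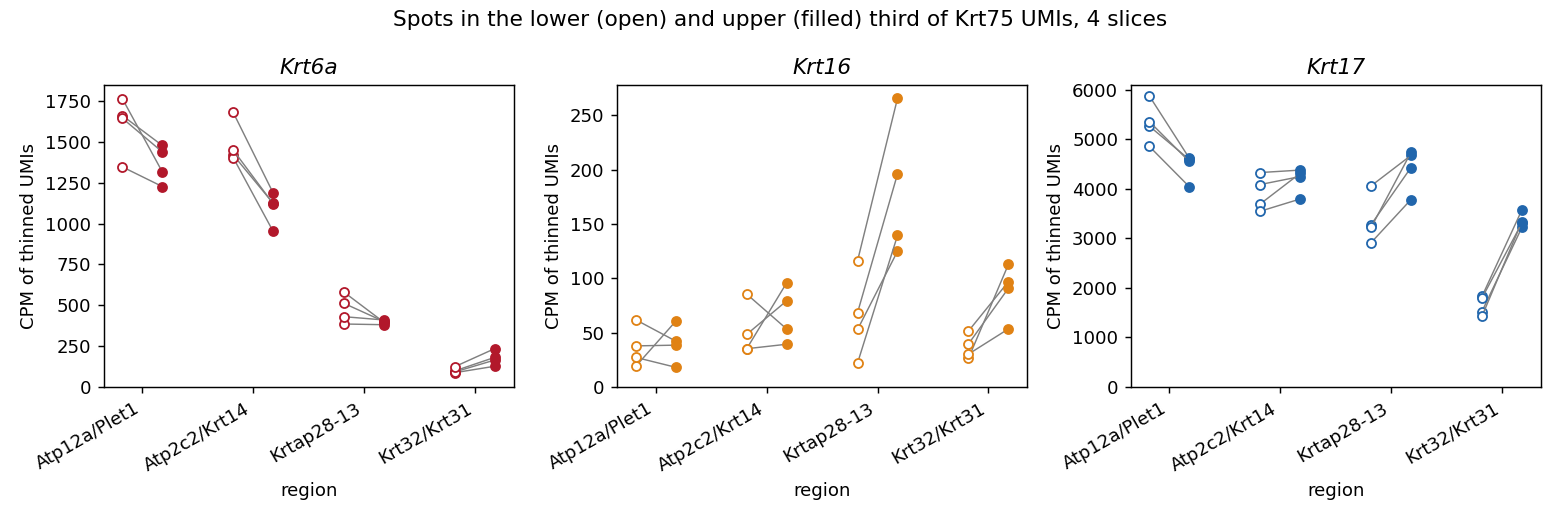
CPM of thinned UMIs of Krt6a, Krt16 and Krt17 in spots of the lower tercile (open) and the upper tercile (filled) by Krt75 UMIs within 4 follicle regions; each line joins the 2 values of a slice. Krt6a is lower in the upper tercile in Atp2c2/Krt14 in all 4 slices, Krt16 is higher in Krtap28-13 and Krt17 in Krt32/Krt31 in all 4.

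Over single thinned spots of the 4 follicle regions (546 to 813 spots per slice), Spearman's rho with Krt75 was -0.55 to -0.49 over the slices for Krt6a, -0.20 to -0.10 for Krt17 and 0.17 to 0.24 for Krt16. Neighbouring spots share sections and library, so these are descriptions. Within Krt32/Krt31 alone Krt17 reached 0.53 to 0.62, and within Atp2c2/Krt14 Krt6a ran at -0.35 to -0.19. Pooled over these regions, whose means differ, the order from most to least like Krt75 was Krt16, Krt17 and Krt6a, as over regions. Within regions it differed, with median rho over the slices of 0.54 for Krt17, 0.16 for Krt6a and 0.15 for Krt16 in Krt32/Krt31, 0.32, -0.055 and 0.26 in Krtap28-13, 0.09, -0.24 and 0.055 in Atp2c2/Krt14 and -0.19, -0.076 and 0.024 in Atp12a/Plet1.

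The other keratins, their partners and the stress genes were counted in the same region contrasts as a description, since they took part in the clustering. Of all 12932 genes tested, 2839 rose and 2934 fell in Krtap28-13. In Atp2c2/Krt14 2156 rose and 2545 fell, and in Atp12a/Plet1 1340 rose and 1593 fell. Counts from the lists are read beside these. All 7 inner root sheath keratins rose in Krtap28-13 (median log2 fold change 2.04 against 0.015 over all genes) and in Atp2c2/Krt14 (median 0.81), as Krt75 did, and none of the 7 was called in Atp12a/Plet1. Of the keratinocyte stress and wound genes, 10 of 15 passed the filter and 7 rose in Krtap28-13 and 2 fell, median 1.84. Sprr2h, a small proline-rich envelope protein, rose there by 3.58 (adjusted p = 1.2e-25), S100a8, an alarmin subunit, by 3.04 (adjusted p = 1.1e-19) and its partner S100a9 by 2.89 (adjusted p = 1.4e-12), whereas Klk6, a kallikrein protease, fell by 2.38 (adjusted p = 2.8e-18). In Atp12a/Plet1, where Krt6a and Krt17 were highest, 2 of the 10 rose, Klk6 by 1.33 (adjusted p = 1.4e-13) and Sprr1a by 0.77 (adjusted p = 0.00027), and 3 fell, and in Atp2c2/Krt14 3 rose and 3 fell. Of the 16 growth factors and regulators tied to these keratins, 7 rose and 4 fell in Krtap28-13, among them Gli1, a Hedgehog target, at 1.84 (adjusted p = 2.5e-06) and Fos, an AP-1 subunit, at -3.38 (adjusted p = 8.5e-23). Of the 8 adhesion genes 4 rose in Krtap28-13 and 2 fell, led by Evpl, envoplakin, at 1.30 (adjusted p = 5.1e-16). Of the 9 basal and suprabasal keratins 2 rose in Krtap28-13 and 7 fell (median -3.61).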

How the data were processed

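Per the labels and the study's methods, the authors ran Space Ranger 2.0.1 on mm10 and deposited UMI counts per gene and spot with spot positions. The kit counts 3′ ends of RNA, and how multi-mapping reads were treated is not given in the sources used here. Of 6420 spots, 6411 with at least 250 genes were kept. Spots were clustered with Seurat 5.3.0 (2000 variable genes without the 5 keratins, 30 components, resolution 0.7). Counts were summed per slice and region or step, regions of under 20 spots left out, and all groups entered 1 quasi-likelihood fit in edgeR 4.0.16, scaled by TMM after filterByExpr. DESeq2 1.42.0, other clusterings, filters, thinning, strips and each slice left out were alternatives. The keratins, gene lists and tests were chosen with earlier results of these data known, and the text names the keratins, their 10 most alike genes and list members. Slices pair the regions because they share the same sections, and same-slice deviations correlated at 0.157, 0.0852, 0.052 and 0.0859 against -0.0585 between slices. Counts were also simulated independently at a fixed spread, with no slice effect and 200 genes changed by a log2 fold of 1. A fit of Atp2c2/Krt14 and Lor/Krt10 alone recovered 95.5% of them (5.45% of calls false, 11038 genes). The fit of Krt75-positive against negative spots recovered 60.5% (5325 genes). These rates do not cover the fit of all regions or the correlation within slices. Doublets have no meaning for spots and were not called. Slices held 19393026 to 26910422 UMIs.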

Additional observations from a re-analysis of the deposited data

How the results depend on the processing

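The settings that could be run changed no direction of Krt75 or Krt6a in Krtap28-13 or Atp2c2/Krt14. Marker lists gave no Krtap28-13, Adipoq/Thrsp or Krtap20-2/Myh4 region, so regions without clusters were not run for these. Of the alternative values, 459 of 504 of the region contrasts and 249 of 264 of the steps kept direction and side of the threshold. With regions drawn from marker lists without clusters, Krt6a in Krt32/Krt31 reversed to 0.67 and Krt17 to 0.63, Krt16 in Atp12a/Plet1 reversed to -0.36 and Krt75 to -0.058, and Krt16 in Atp2c2/Krt14 at 0.47 lost its call. Marker-list regions hold other spots than the clusters of the same name, so these values are not of the same tissue. With epidermal spots from the marker list, Krt6a at step 4 became 0.79, Krt17 0.50 (now called), Krt16 at steps 5 to 6 0.20 and Krt16 at step 2 0.25 (no longer called). With 17 clusters (no resolution gave the 16 planned), Krt16 in Atp12a/Plet1 became -0.023, Krt16 in Krt32/Krt31 0.41 (no longer called) and Krt17 in Krt32/Krt31 -0.55 (called). Krt17 in Krt32/Krt31 was also called at -0.35 by library size alone, -0.32 by DESeq2 and -0.26 with strips as units. Library size alone gave 0.27 for Krt6a in Krtap28-13 (not called) and 0.017 for Krt17 in Krtap20-2/Myh4. The cause was not tested. Krt6a at step 4, near 0, became 0.0015 with no filter on low genes, 0.054 with thinned spots and 0.052 with steps within a strip, and Krt17 there was called at 0.23 by DESeq2, 0.30 and 0.28.

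With the slice as a replicate block the values were -0.22 for Krt17 in Krt32/Krt31 and 0.24 at step 4, and by the Krt75 split -0.41 for Krt6a in Atp2c2/Krt14, -0.26 and 0.37 for Krt17 in Atp12a/Plet1 and Krtap28-13 and 1.44 for Krt16 in Krtap28-13, all called. The block also called Krt16 in Ttn/Acta1 and Adipoq/Thrsp (-0.46) and Krt17 in Scd3/Cidea (0.25), and changed no other call of the keratins. Krt16 in Krtap28-13 by the split was also called at 1.44 by library size alone, 1.43 with no filter and 1.43 by DESeq2.

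With each slice left out, values ranged over -0.089 to 0.20 for Krt16 in Atp12a/Plet1 and 0.55 to 0.67 in Atp2c2/Krt14, -0.041 to 0.027 for Krt6a and 0.25 to 0.29 for Krt17 at step 4, -0.27 to 0.059 for Krt16 at steps 5 to 6, -0.14 to 0.50 and -0.023 to 0.31 for Krt16 and Krt6a in Krt75-positive spots, and by the split 1.02 to 1.47 and 0.79 to 0.93 for Krt16 and Krt6a in Krt32/Krt31 and 1.26 to 1.57 for Krt16 in Krtap28-13. The log2 ratio of Krt16 to Krt75 in Atp12a/Plet1 ranged over -0.18 to 0.11, and in Scd3/Cidea it became 0.075 as a mean of log2 values over spots. Over single thinned spots of follicle regions the likeness to Krt75 was -0.50 for Krt6a, 0.21 for Krt16 and -0.14 for Krt17, and Spearman's rho for Krt17 over regions was -0.029. Genes called by the split moved most, from 220 to between 78 (without replicate 3) and 556 (block) in Krt32/Krt31, from 22 to between 1 and 68 in Atp2c2/Krt14, from 12 to between 3 and 107 in Krtap28-13 and from 1 to between 0 (DESeq2) and 101 in Atp12a/Plet1. Krt75-positive spots by unthinned UMIs or in marker-list regions were not run, since fewer than 20 spots of a status were left in a slice. Krt16, with 4394 UMIs, and Krt6b, with 1, were shallow, and no p over 4 slices speaks for more than the 3 mice.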
